A study of Homo sapiens with 8 samples.

Results

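The miR-302 and miR-367 cluster is a group of 5 miRNA hairpins, miR-302a, miR-302b, miR-302c, miR-302d and miR-367, that are cut from 1 transcript. Its members here are the 5p and the 3p arm of each hairpin, taken by name from the deposited table. All 10 arms were in the table, out of 594 mature miRNAs. They were measured by small-RNA sequencing in the established H1 line of human embryonic stem cells. Each of 4 Dicer genotypes had 2 libraries. The genotypes were Dicer-null, wild type, homozygous for Dicer-S1344L, and hemizygous for Dicer-S1344L, which by the usual meaning of the term is 1 copy of the altered gene. Per the series' design text, the S1344L cells were engineered with CRISPR-Cas9. The sample descriptions code the homozygous cells as pmpm, the hemizygous cells as pmfs and the null cells as fsfs. The code fs, shared by hemizygous and null cells, is not explained. The sources used here do not say how many clones each genotype stands for, what change the second allele of the hemizygous cells carries, or how the null cells were made. No treatment or time point is named for any group. The labels describe the RNA samples as biologically independent. Where the libraries of a genotype come from 1 clone, the spread between them holds no difference between clones. The p-values of the arms rest on a spread pooled over all miRNAs and all 4 genotypes, not on that of the libraries compared.

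Dicer cuts the loop from a miRNA precursor hairpin, which frees a duplex of the 5p and the 3p arm, and an Argonaute protein keeps 1 of the arms as the guide. The RNase IIIb domain of Dicer makes the cut beside the 5p arm and the RNase IIIa domain the cut beside the 3p arm; the residue S1344, a cancer hotspot, lies in the IIIa domain. The guide finds its target mRNAs chiefly through its seed, bases 2 to 8 counted from the 5′ end. The miR-302 guides are 3p arms that are a hallmark of human embryonic stem cells, where they act on cell-cycle inhibitors and on regulators of differentiation. miR-367 is made from the same transcript but has a different seed, that of the miR-25 and miR-92 family.

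The cluster lies on chromosome 4 at 112647874-112648557 (hg38), on the minus strand, and spans 684 bases. In transcript order its hairpins are miR-302b (112648485-112648557), miR-302c (112648363-112648430), miR-302a (112648183-112648251), miR-302d (112648004-112648071) and miR-367 (112647874-112647941). The annotation places them in the antisense gene AC106864.1, which itself lies within the protein-coding gene LARP7 on the opposite strand. No LARP7 exon overlapped a hairpin, and exon 2 of AC106864.1-201 (112648513-112648599) overlapped the miR-302b hairpin alone. The hairpins below, from RefSeq (GRCh38.p14), show where Dicer's products sit, with the mature 5p and 3p arms in capitals and the loop between them in lower case. The loop between the arms is 13 to 16 bases long.
miR-302b hairpin: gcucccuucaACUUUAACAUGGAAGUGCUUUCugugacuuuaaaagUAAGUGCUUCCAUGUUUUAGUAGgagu
miR-302c hairpin: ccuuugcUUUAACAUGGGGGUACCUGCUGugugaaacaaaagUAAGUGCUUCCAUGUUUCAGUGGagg
miR-302a hairpin: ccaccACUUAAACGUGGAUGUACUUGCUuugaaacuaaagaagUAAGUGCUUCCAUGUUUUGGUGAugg
miR-302d hairpin: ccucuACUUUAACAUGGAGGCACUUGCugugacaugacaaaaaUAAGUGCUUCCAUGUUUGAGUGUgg
miR-367 hairpin: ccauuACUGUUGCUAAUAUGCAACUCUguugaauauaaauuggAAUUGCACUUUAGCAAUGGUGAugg

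The 10 mature sequences are shown with the seed in capitals, because the arms group by seed and 2 of the 5p arms behaved apart from the rest. On the 3p side the 4 miR-302 arms share the seed AAGUGCU, and miR-367-3p has AUUGCAC.
miR-302a-3p: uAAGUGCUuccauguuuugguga
miR-302b-3p: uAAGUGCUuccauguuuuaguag
miR-302c-3p: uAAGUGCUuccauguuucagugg
miR-302d-3p: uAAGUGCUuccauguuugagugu
miR-367-3p: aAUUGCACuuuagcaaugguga
On the 5p side only miR-302b-5p and miR-302d-5p share a seed, CUUUAAC.
miR-302a-5p: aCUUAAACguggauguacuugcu
miR-302b-5p: aCUUUAACauggaagugcuuuc
miR-302c-5p: uUUAACAUggggguaccugcug
miR-302d-5p: aCUUUAACauggaggcacuugc
miR-367-5p: aCUGUUGCuaauaugcaacucu
The 3p arms of miR-302 are identical at 86.96% to 91.3% of their bases. How the authors assigned reads to such near-identical arms is not given in the sources used here, so the split between miR-302 3p arms is uncertain to that extent.

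The libraries held between 137655 and 2725756 miRNA reads, and the 2 Dicer-null libraries were the shallowest at 165317 and 137655. Levels are given in RPM, the usual depth-scaled read count, set against the denominator that the authors used for each library. That denominator is not the total of the miRNA reads, and the cluster alone exceeded it in both homozygous libraries (114.5% and 104.9%) and in hemizygous replicate 2 (120.3%). In the wild type the miRNA reads were 2.09 and 2.33 times the denominator, and in the null libraries 0.118 and 0.183 times. Hemizygous replicate 1 stood apart from its partner at 0.729 against 2.42, and its log2 levels lay 1.93 lower at the median of all miRNAs. The 8 embryonic stem cell markers, 5 of them members of the cluster, held 38.0% to 39.7% of wild-type, 48.7% to 49.7% of homozygous, 50.3% to 51.6% of hemizygous and 45.6% to 52.3% of null reads. The marker lists of other cell types were small but moved with genotype as well. The fibroblast list held 0.943% to 1.19% of wild-type, 0.317% to 0.356% of homozygous, 0.168% to 0.337% of hemizygous and 0.925% to 1.0% of null reads. For the neural list the ranges were 0.734% to 0.931%, 1.14% to 1.25%, 1.22% to 1.7% and 0.572% to 0.59%, and for the blood and endothelium list 0.157% to 0.161%, 0.271% to 0.278%, 0.238% to 0.298% and 0.0357% to 0.0523%, in the same order. The muscle and endoderm list held at most 0.0574% of any library. Of the 6 fibroblast markers 4 were measured, of the 5 for muscle and endoderm 4, and of the 4 for blood and endothelium 3. The lists of other cell types mix 5p and 3p arms, while the embryonic stem cell list holds 3p arms alone. In homozygous cells the median log2 difference was -2.25 over all 5p arms and 0.68 over all 3p arms. How far the arms set these lists was not tested, nor was the part of the lists in the results on the cluster. In bulk libraries, fewer cells of a type and less RNA per cell cannot be told apart. The labels give no batch or date.

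The 3p arms were the most abundant miRNAs of these cells. miR-302b-3p was the first of 594 in all 8 libraries, and the 5 3p arms took the first 5 ranks in each wild-type, homozygous and hemizygous library. In the wild type miR-302b-3p stood at 196610 and 200530 RPM, miR-302c-3p at 177920 and 174870 RPM, and miR-302a-3p at 160620 and 162570 RPM. miR-367-3p stood at 137490 and 185110 RPM and miR-302d-3p at 122010 and 125150 RPM. In the order of wild-type levels, the ranges of miR-302a-3p and miR-367-3p overlapped, and those of the other neighbours among the 3p arms did not. The arms differ in length by at most 1 base. Whether length bears on these levels was not tested, and how well each sequence ligates was not measured.

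The 5p arms of the same hairpins were lower and more unequal. miR-302a-5p, at 47338 and 78361 RPM in the wild type, was the most abundant, followed by miR-302c-5p at 18580 and 24870 RPM. miR-302b-5p had 7818 and 15122 RPM and miR-302d-5p 3545 and 4481 RPM. miR-367-5p differed most between the wild-type libraries, at 1045 RPM (1342 reads) and 4195 RPM (4902 reads), so its comparisons rest on widely spread controls. Of the neighbours in this order only miR-302d-5p and miR-367-5p overlapped.

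**Figure D1:**
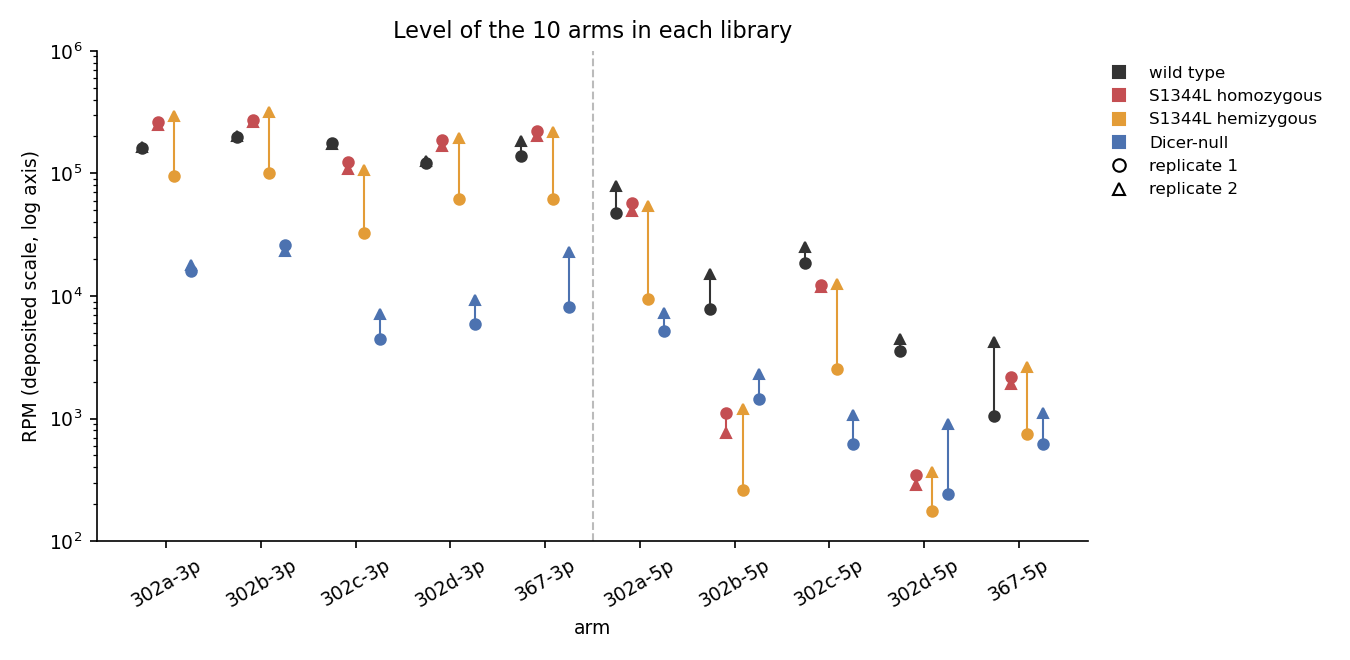
Level of each arm (RPM on a log axis, deposited scale) in the 8 libraries; colours are genotypes, circles replicate 1, triangles replicate 2, and a line joins the 2 libraries of a genotype. The S1344L levels of miR-302b-5p and miR-302d-5p lie far below wild type, further than those of any 3p arm, and hemizygous replicate 1 lies below replicate 2 in every arm.

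The first comparison asks what homozygous S1344L does to the arms. Of the 10, 2 fell and 0 rose (limma, Benjamini-Hochberg adjusted p under 0.05 over all 594 miRNAs), against 32.2% of all miRNAs called in either direction, 22.2% called lower and 9.93% called higher. Both that fell are the 5p arms with the seed CUUUAAC. miR-302b-5p had 1117 and 760 RPM in the homozygous libraries against 7818 and 15122 in the wild type, an 11.8-fold fall (log2 difference -3.56 ± 0.87 SE, n = 2 per group, limma adjusted p = 0.000509). Every homozygous library lay below every wild-type one, a separation that 8 of the 10 arms had in one or the other direction and that 81.5% of all miRNAs had. miR-302d-5p had 344 and 287 RPM against 3545 and 4481, a 12.7-fold fall (-3.66 ± 0.92, limma adjusted p = 0.000651), again with no overlap. In reads these are 1054 and 632 for miR-302b-5p and 324 and 238 for miR-302d-5p, so neither is near the limit of counting. Both remained lower under the 20 alternatives tried, and both missed the threshold when wild-type replicate 2 (limma adjusted p = 0.0817 and 0.0595) or homozygous replicate 2 (0.0794 and 0.0757) was left out.

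The other 3 5p arms did not pass. miR-302a-5p had 57389 and 49298 RPM in homozygous cells (-0.20, 95% interval -1.68 to 1.29), and its range overlapped the wild type's. miR-302c-5p had 12215 and 11793 RPM (-0.84, interval -2.45 to 0.76), below both wild-type libraries. miR-367-5p had 2187 and 1899 RPM (-0.04, interval -1.76 to 1.68), between the wild-type libraries. Over all 227 5p arms of the table the median difference was -2.25 and 111 fell, so these 3 arms lay above the 5p median and miR-302b-5p and miR-302d-5p below it.

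None of the 5 3p arms passed in homozygous cells, and their median difference was 0.43 against 0.68 over all 300 3p arms. miR-302a-3p had 264200 and 248490 RPM (0.67, 95% interval -0.71 to 2.04), miR-302b-3p 274740 and 260530 RPM (0.43, interval -0.94 to 1.80) and miR-302d-3p 188350 and 166520 RPM (0.52, interval -0.90 to 1.93). In each of these, as in miR-367-3p at 221560 and 200930 RPM (0.40), both homozygous libraries lay above both wild-type libraries. miR-302c-3p went the other way, with 122980 and 108880 RPM (-0.61, interval -2.04 to 0.82), both below the wild type. A fit of the 4 homozygous and wild-type libraries alone, whose spread is smaller, called 8 of the 10 arms at the same differences, all but miR-302a-5p and miR-367-5p; over all 594 miRNAs that fit called 157 higher and 215 lower, against 59 and 132 in the fit of all 8 libraries.

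In hemizygous cells the same 2 arms were called, both lower, and 0 were higher, against 34.7% of all miRNAs called, 30.6% called lower and 4.04% called higher. miR-302b-5p had 259 and 1208 RPM (-4.28 ± 0.87 SE, limma adjusted p = 1.42e-05), and miR-302d-5p 175 and 369 RPM (-3.96 ± 0.92, limma adjusted p = 0.000119). The lower value of each is hemizygous replicate 1, and the higher value still lay below both wild-type libraries. Without that replicate the differences were -3.17 and -3.43, and both passed in each of the 20 alternatives. The homozygous and hemizygous comparisons share the wild-type libraries, so they are not independent of each other.

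Among the remaining arms of hemizygous cells, miR-302c came nearest to the threshold on both sides of its hairpin. miR-302c-5p had 2529 and 12595 RPM (-1.93, limma adjusted p = 0.0529) and miR-302c-3p 32581 and 106790 RPM (-1.58, limma adjusted p = 0.0787). All 4 values lay below their wild-type range; 4 of the 10 arms did not overlap with the wild type in hemizygous cells, against 53% of all miRNAs. Hemizygous replicate 1 lay 1.93 lower in log2 than replicate 2 at the median of all miRNAs, and leaving out either library moved the arms. Without replicate 2, miR-302a-3p was at -0.77 and miR-302b-3p at -0.97. Without replicate 1 they were at 0.87 and 0.68. miR-302a-3p, miR-302b-3p, miR-302d-3p and miR-367-3p were at 0.05, -0.15, -0.18 and -0.46 with both libraries, and each had a hemizygous library on either side of the wild type.

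**Figure D2:**
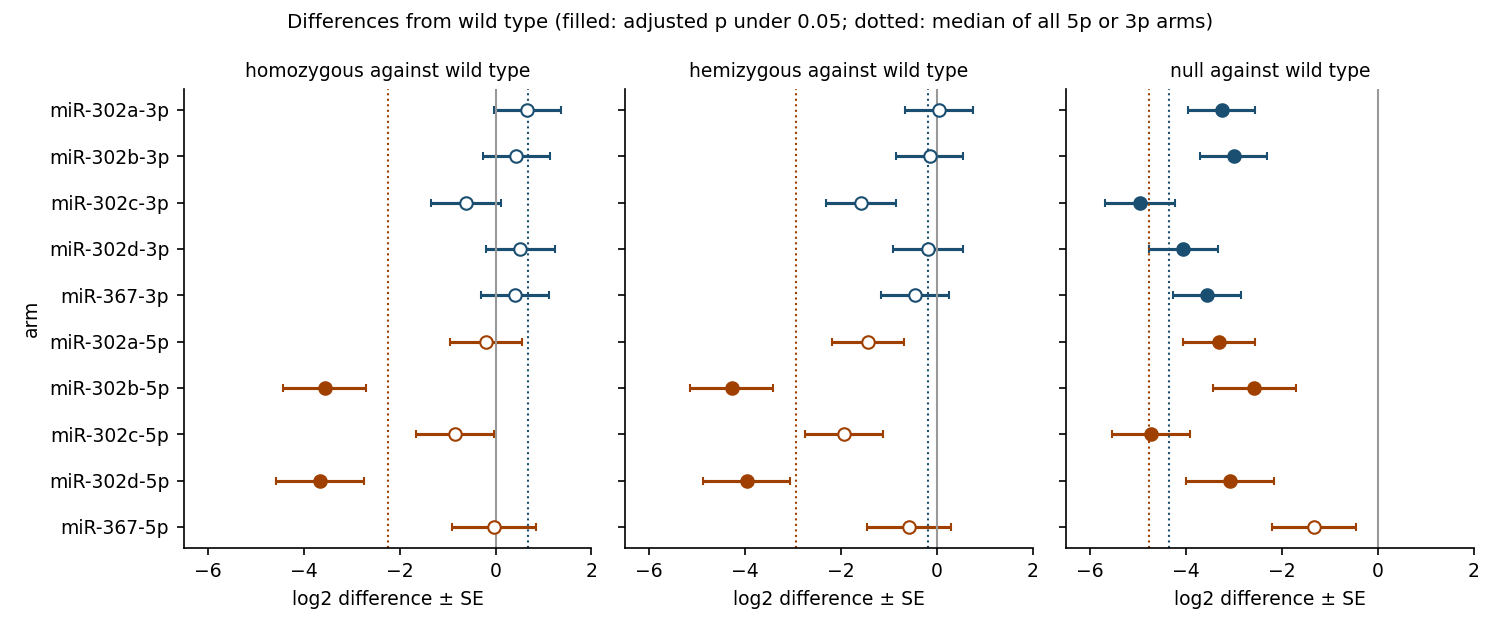
Log2 difference from wild type of each arm, with its standard error from limma, in homozygous, hemizygous and null cells; filled points passed an adjusted p of 0.05 and dotted lines are the medians of all 5p (brown) and all 3p (blue) arms. In both S1344L genotypes miR-302b-5p and miR-302d-5p lie left of the 5p median and the other 5p arms right of it; in null cells 9 of 10 arms are filled.

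A ratio of the 2 arms of 1 hairpin does not depend on how a library was scaled. In homozygous cells the ratio of 3p to 5p passed in 2 of 5 hairpins, both toward 3p, whereas 80.6% of the 186 hairpins with both arms in the table were called and 79.6% were called toward 3p. miR-302b went from log2 ratios of 4.65 and 3.73 in the wild type to 7.94 and 8.42 (3.99 ± 0.43 SE, limma adjusted p = 3.95e-06). miR-302d went from 5.10 and 4.80 to 9.09 and 9.18 (4.18 ± 0.43, limma adjusted p = 2.87e-06). These shifts were larger than the median over all 186 hairpins, 3.29, and each passed in the 13 alternatives tried.

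The other 3 hairpins were among the least shifted of the table. By the size of the difference miR-302a ranked 162 of 186 (0.86 ± 0.39, limma adjusted p = 0.0563), miR-367 ranked 173 (0.44, 95% interval -0.58 to 1.47) and miR-302c ranked 181 (0.23, interval -0.53 to 0.99). In miR-302a both homozygous ratios, 2.20 and 2.33, lay above the wild-type ratios of 1.76 and 1.05. In miR-302c the homozygous ratios of 3.33 and 3.21 overlapped the wild-type 3.26 and 2.81. The miR-302a shift passed in 5 of the 13 alternatives and ranged from 0.506 to 1.215 when 1 library was left out in turn.

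In hemizygous cells 3 of 5 hairpins were called, all toward 3p, against 79% of all hairpins called and 78% called toward 3p. miR-302b shifted by 4.13 ± 0.43 SE (limma adjusted p = 3.1e-06), miR-302d by 3.78 ± 0.43 (limma adjusted p = 7.23e-06) and miR-302a by 1.48 ± 0.39 (limma adjusted p = 0.00371). The miR-302a call rested on hemizygous replicate 1, whose ratio was 3.33 against 2.44 in replicate 2; without it the shift was 1.03 (limma adjusted p = 0.0579). Neither miR-302c (0.35) nor miR-367 (0.12) passed.

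As shares of reads, miR-302b-5p went from 3.824% (95% Wilson interval 3.751 to 3.898) and 7.012% (6.913 to 7.112) of its hairpin in the wild type to 0.405% (0.381 to 0.430) and 0.291% (0.269 to 0.314) in homozygous cells. For miR-302d-5p the shares went from 2.823% and 3.457% to 0.182% and 0.172%. In hemizygous cells they were 0.255% and 0.378% for miR-302b-5p, and 0.284% and 0.190% for miR-302d-5p. miR-302a-5p, the largest 5p share of the cluster, was at 27.6% ± 6.90 (SD, n = 2) of its hairpin in the wild type, 17.2% ± 0.919 in homozygous and 12.3% ± 4.61 in hemizygous cells. The miR-302c-5p shares were 10.95% ± 2.12, 9.404% ± 0.522 and 8.876% ± 2.37 in the same order and overlapped between genotypes. These intervals hold only the counting error within 1 library, not the spread between libraries. No molecular identifiers are named in the labels. Amplified copies may thus be counted as separate reads, and even the counting error may be understated.

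Across the 5 hairpins, the sequences can be set beside the shifts as a description. The 2 hairpins with the large shifts are the only pair whose 5p arms share a seed. Both 5p arms end with C, while those of miR-302a, miR-302c and miR-367 end with U, G and U. Both also start with A and are 22 bases long, which holds for miR-367-5p as well. Over the whole arm, miR-302c-5p and miR-302d-5p are the most alike 5p pair, at 85% of aligned bases with a shift of 2 bases. For miR-302b-5p and miR-302d-5p the value is 81.82%. The loop does not separate them: it is 14 bases in miR-302b and 16 in miR-302d, against 15, 13 and 16 in miR-302a, miR-302c and miR-367. Nor does the 3p arm, which is 23 bases long and starts with U in all 4 miR-302 hairpins. miR-302a-5p, at 23 bases, is the only longer 5p arm.

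**Figure D3:**
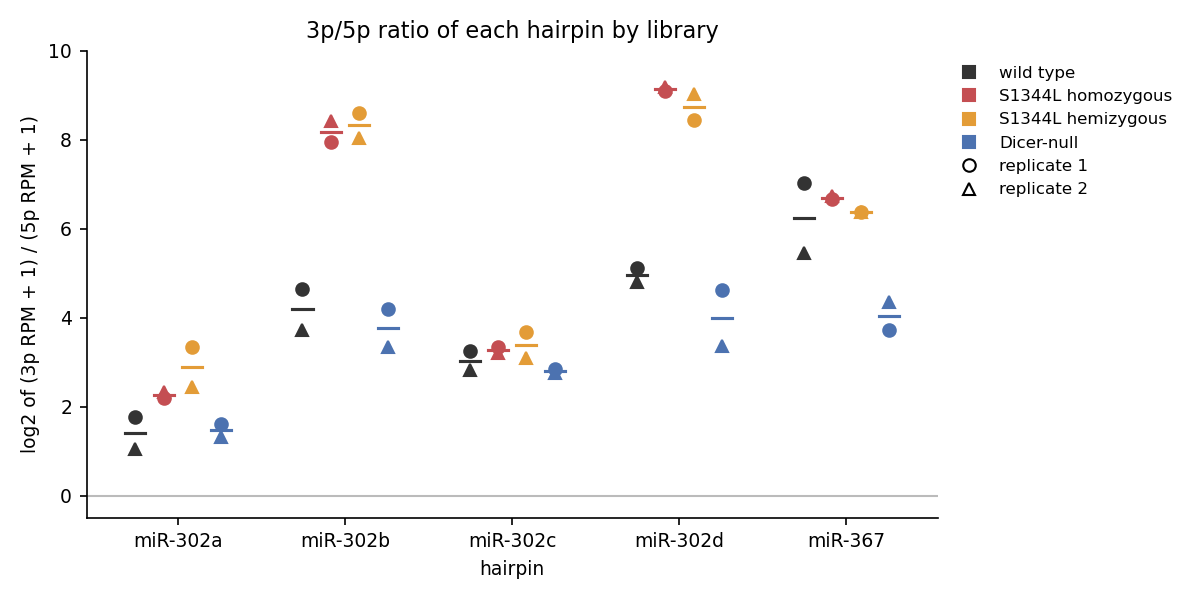
Log2 ratio of 3p to 5p RPM (with 1 RPM added to each) for each hairpin and library; colours are genotypes, symbols replicates and bars the mean of 2 libraries. miR-302b and miR-302d move from about 4 to 5 in the wild type to about 8 to 9 in both S1344L genotypes, miR-302c overlaps across wild type and S1344L, and miR-367 is lowest in null cells.

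Dicer-null cells kept reads of all 10 arms. On the deposited scale 9 of 10 fell and 0 rose, close to the 88.6% of all miRNAs called (87.2% lower and 1.35% higher). The libraries of 9 arms did not overlap with the wild type, against 92.8% of all miRNAs. miR-302c-3p fell most, from 177920 and 174870 to 4465 and 7140 RPM (-4.96 ± 0.73 SE, limma adjusted p = 1.99e-10), and miR-302b-3p least among the 3p arms, from 196610 and 200530 to 26280 and 23265 RPM (-3.005 ± 0.70, limma adjusted p = 2.86e-05). The arm that did not pass was miR-367-5p, with 615 and 1113 RPM (-1.34, limma adjusted p = 0.137). Median differences were -3.56 for the 3p and -3.09 for the 5p arms of the cluster, against -4.35 over all 3p and -4.77 over all 5p arms. These directions belong to the deposited scaling. With every library scaled to the sum of its miRNA reads, 4 arms were called higher and 2 lower. There miR-302c-3p was at -1.06, miR-302c-5p at -0.82, miR-302b-3p at 0.90 and miR-367-5p at 2.57. Of the 594 miRNAs 79 were then called higher and 265 lower, with a median of -0.84 in place of -4.49. The 5 other scalings tried are all set from the miRNA reads themselves. They give levels relative to other miRNAs, and a loss common to all miRNAs cannot show in them.

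The balance between the arms in null cells was unlike that of S1344L cells. Of the 5 hairpins 1 was called, miR-367 toward 5p (-2.22 ± 0.47 SE, limma adjusted p = 0.00255), against 43.5% of all hairpins called, 17.2% toward 5p and 26.3% toward 3p. Its log2 ratios were 3.72 and 4.35 in null and 7.04 and 5.46 in wild-type libraries, without overlap. miR-302b-5p made up 5.209% and 8.996% of its hairpin and miR-302d-5p 3.909% and 8.851%, the first within and above the wild-type shares and the second above them. miR-302d was at -0.97 (limma adjusted p = 0.0828), and without null replicate 1 it was at -1.59. miR-302a (0.06), miR-302b (-0.43) and miR-302c (-0.24) did not pass.

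Set against null cells directly on the deposited scale, the homozygous cells had 7 of 10 arms higher and 0 lower, with 78.3% of all miRNAs called, 76.3% higher and 2.02% lower. The 3 that did not pass were miR-302b-5p (-0.98), miR-302d-5p (-0.58) and miR-367-5p (1.30). Hemizygous cells likewise had 7 higher and 0 lower, with 64.8% of all miRNAs called, 63.8% higher and 1.01% lower, and the same 3 arms did not pass (-1.70, -0.88 and 0.76). In RPM the homozygous level of miR-302b-5p, 1117 and 760, lay below the null level of 1444 and 2300. These calls turned with the scaling, and the 5 other scalings give levels only relative to the miRNA reads of each library. Under the 5 others 0 to 2 arms were called higher and 4 lower in homozygous against null cells, and 1 or 2 higher and 4 lower in hemizygous against null cells. Among all 594 miRNAs the calls there were 196 to 242 higher and 176 to 194 lower in homozygous, and 189 to 235 higher and 174 to 194 lower in hemizygous cells. miR-302b-5p was then called lower than in null cells by limma each time, between -5.16 and -4.75 in homozygous and between -5.02 and -4.55 in hemizygous cells. miR-302d-5p was called lower each time as well, between -4.74 and -4.34 and between -4.20 and -3.72. The hairpin ratios were higher in homozygous than in null cells in miR-302b (4.42), miR-302d (5.15) and miR-367 (2.66), 3 of 5 with 79.6% of all hairpins called and 77.4% toward 3p. In hemizygous cells miR-302a (1.42) joined them, 4 of 5 with 79% called and 77.4% toward 3p.

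Neither the arms nor the hairpin ratios told the 2 S1344L genotypes apart by limma. Of the 10 arms 0 were called between hemizygous and homozygous cells, with 0% of the 594 miRNAs called by limma; at an unadjusted p under 0.05 there were 0 members and 7 miRNAs. All 10 differences were below 0, from -1.24 in miR-302a-5p to -0.30 in miR-302d-5p, with a median of -0.71 against -0.85 over all miRNAs. Hemizygous replicate 1, the library that stood apart, lay 1.93 lower in log2 than replicate 2 at the median of all miRNAs. The ratio of 3p to 5p was called in 0 of 5 hairpins (0% of all, and 5 of 186 at an unadjusted p under 0.05), with miR-302b at 0.14 (95% interval -0.80 to 1.08) and miR-302d at -0.40 (interval -1.34 to 0.55). The cluster's share of miRNA reads did not overlap, at 47.21% and 48.10% in homozygous and 50.06% and 49.64% in hemizygous libraries. Nor did miR-302c-3p over the mean of the other miR-302 3p arms, at -0.979 and -1.05 against -1.40 and -1.33 (log2). Neither difference was tested between these 2 genotypes.

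As a share of all miRNA reads, which needs no scaling between libraries, the cluster was large and lay higher in each mutant library than in the wild type. It held 41.82% (95% Wilson interval 41.76 to 41.87) and 41.82% (41.76 to 41.88) in the wild type, and 47.21% (47.14 to 47.27) and 48.10% (48.03 to 48.18) in homozygous cells. Hemizygous libraries had 50.06% (49.97 to 50.16) and 49.64% (49.56 to 49.71), so replicate 1 did not stand apart in this measure. The null libraries had 58.18% (57.94 to 58.41) and 50.79% (50.53 to 51.06). The differences from wild type were 5.84, 8.03 and 12.7 percentage points, with no overlap in any of them. A two-sided exact permutation test returned p = 0.333 each time, the smallest that 2 against 2 libraries allow, so none can reach the threshold. A share also rises where other miRNAs fall. Scaled to all miRNA reads, the 5 3p arms had median log2 differences of 0.37 in homozygous, 0.552 in hemizygous and 0.351 in null cells. Over all 300 3p arms these medians were 0.615, 0.49 and -0.754.

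In both S1344L genotypes the share of the 3p arms lay above the wild type and that of the 5p arms below it, while in null cells both lay above it. The 5 3p arms together held 37.2% ± 1.20 (SD, n = 2) of the reads in the wild type, 44.7% ± 0.692 in homozygous, 47.5% ± 1.10 in hemizygous and 47.6% ± 5.26 in null cells. The 5 5p arms held 4.599% ± 1.20, 2.978% ± 0.0598, 2.364% ± 0.799 and 6.864% ± 0.0424 in that order. The pair miR-302b-5p and miR-302d-5p held 0.692% ± 0.210 of wild-type reads but 0.0541% ± 0.00865 and 0.0623% ± 0.00391 in the S1344L genotypes, and 1.588% ± 0.228 in null cells.

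miR-302c-3p was the 3p arm whose share lay furthest from the wild type in each mutant genotype. It took 21.5% ± 1.25 (SD, n = 2) of the reads of the 5 3p arms in the wild type, 11.3% ± 0.297 in homozygous, 9.35% ± 0.123 in hemizygous and 8.119% ± 1.07 in null cells, that is 1.91, 2.3 and 2.65 times less. No mutant library overlapped the wild type, and each comparison gave the smallest permutation p, 0.333. Set against the mean of the other 3 miR-302 3p arms, it stood at 0.155 and 0.104 (log2) in the wild type, -0.979 and -1.05 in homozygous, -1.40 and -1.33 in hemizygous, and -1.84 and -1.24 in null libraries. Its rank among all miRNAs went from 2 and 3 in the wild-type libraries to 5 in all S1344L libraries and to 8 and 7 in null libraries. miR-302a-3p took 19.7% ± 0.735 of the 3p reads in the wild type and 24.9% ± 0.403, 26.5% ± 0.658 and 24.2% ± 2.69 in the mutants. The ratio of miR-302c-3p to miR-302c-5p was called against wild type in none of the 3 genotypes.

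**Figure D4:**
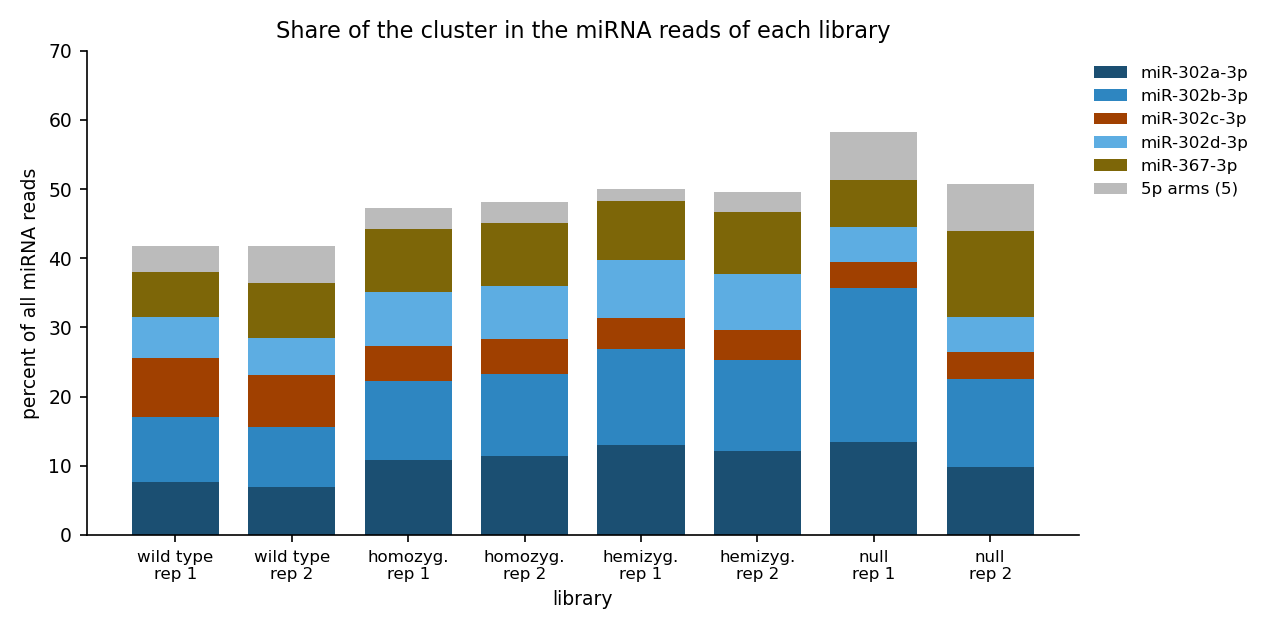
Stacked bars of the share of all miRNA reads held by each 3p arm and by the 5 5p arms together, for each library. The total is 41.82% in both wild-type libraries and higher in all 6 mutant libraries, while the miR-302c-3p segment (brown) is smaller in each mutant library than in either wild-type one.

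The calls of the 3p arms depended on the scaling, and those of miR-302b-5p and miR-302d-5p in S1344L cells did not. In homozygous cells miR-302b-5p lay between -3.62 and -2.65, and miR-302d-5p between -3.72 and -2.75, under 5 other scalings, all of them called. The 3p arms had 0 of 5 called on the deposited scale, where 56 of all 300 3p arms were higher and 13 lower. Scaled to all miRNA reads, 2 were higher and 1 (miR-302c-3p) lower, against 104 and 36 of all 3p arms. Under median-ratio scaling 4 were higher and 0 lower, against 154 and 24. Over all 594 miRNAs the calls went from 59 higher and 132 lower as deposited to 251 higher and 149 lower under upper-quartile scaling, and the median from -0.04 to 0.84. miR-302a-3p and miR-302d-3p were called higher under each of the 5 other scalings in homozygous and in hemizygous cells, and neither was called as deposited.

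**Figure D5:**
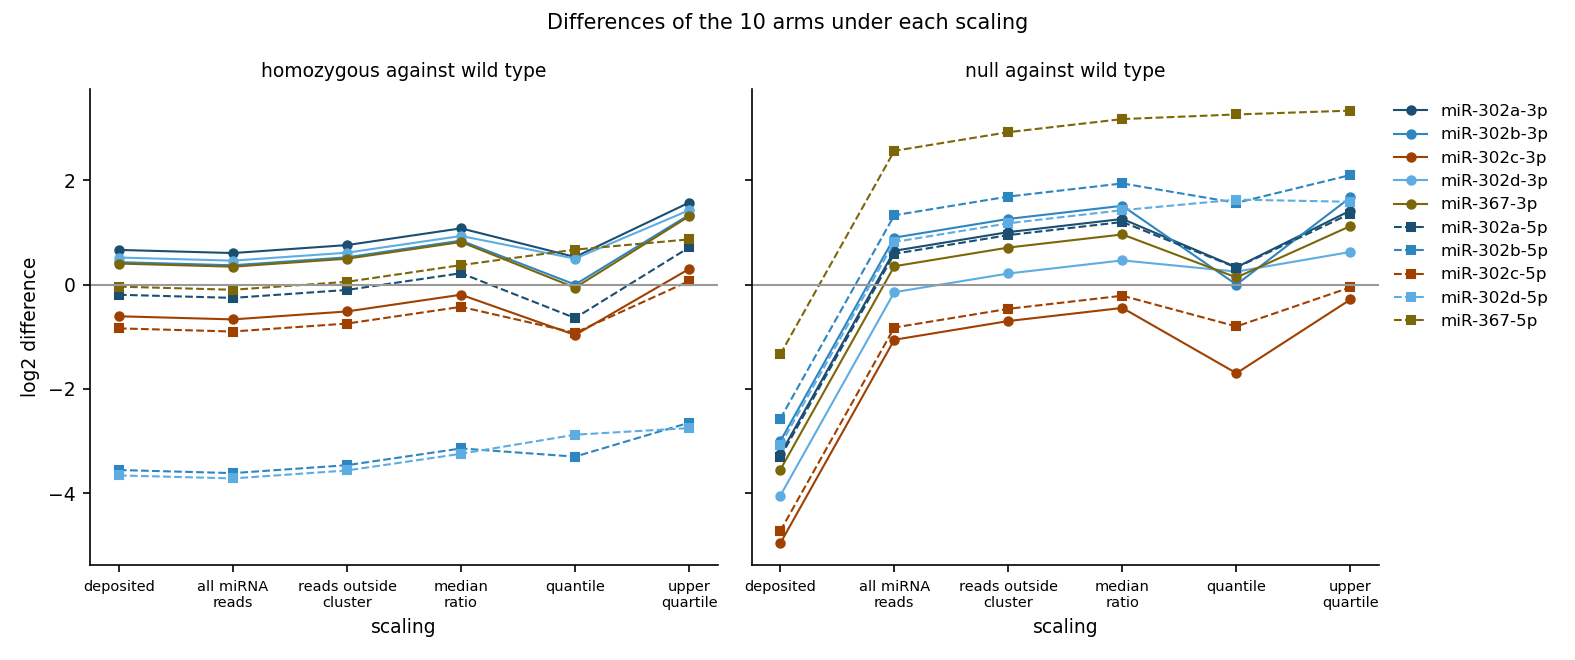
Log2 difference of each arm from wild type under the deposited and 5 other scalings, for homozygous (left) and null cells (right); solid lines and circles are 3p arms, dashed lines and squares 5p arms. In homozygous cells miR-302b-5p and miR-302d-5p stay below -2.6 throughout; in null cells most arms cross 0 once the scaling changes while miR-302c-3p and miR-302c-5p stay below it.

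Other miRNAs carry the seeds of the cluster. The seed AAGUGCU was found in 8 further measured miRNAs, miR-302e, miR-372-3p, miR-373-3p and 5 miR-520 arms of 3p origin; the 4 most abundant in the wild type are shown with the seed in capitals.
miR-372-3p: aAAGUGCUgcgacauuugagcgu
miR-373-3p: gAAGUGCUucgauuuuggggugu
miR-520c-3p: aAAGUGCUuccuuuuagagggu
miR-520b-3p: aAAGUGCUuccuuuuagaggg
In homozygous cells 1 of the 8 rose and 0 fell, with a median of 0.53, beside 56 higher and 13 lower of all 300 3p arms and their median of 0.68. That one, miR-520a-3p, went from a mean of 455 ± 47.0 RPM (SD, n = 2) to 2585 ± 24.5 RPM (2.51, limma adjusted p = 0.0255) and is named after its value was seen. miR-372-3p had 14482 ± 516 RPM in the wild type and 39554 ± 1005 RPM in homozygous cells (1.45), and miR-373-3p 14242 ± 1878 and 34826 ± 3040 RPM (1.29); neither passed. In hemizygous cells 0 of the 8 passed, with a median of -0.32. Of all 300 3p arms 24 were higher and 29 lower there, with a median of -0.18. In null cells all 8 fell on the deposited scale, with a median of -4.75, as did 272 of all 300 3p arms. Under the 5 other scalings 4 to 6 of the 8 were called higher in homozygous cells and 3 to 8 in hemizygous cells, while in null cells 0 were called higher and 7, 2, 1, 1 and 1 lower. Of all 300 3p arms 104 to 201 were then higher in homozygous and 101 to 194 in hemizygous cells. In null cells 26 to 60 of the 300 were higher, and 134, 100, 79, 72 and 88 were lower.

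Added up by seed, the cluster outweighed these relatives in every genotype. The 4 miR-302 3p arms held 29.96% ± 2.15 (SD, n = 2) of wild-type reads and the 8 relatives 2.102% ± 0.141. In homozygous cells the values were 35.5% ± 0.638 and 4.053% ± 0.103, in hemizygous 38.7% ± 1.47 and 3.24% ± 0.169, and in null cells 38.0% ± 9.18 and 1.526% ± 0.386. All reads with the seed AAGUGCU thus came to 32.1%, 39.6%, 42.0% and 39.5% in the 4 genotypes. The short miR-302e, 17 bases long, amounted to 0.263% to 0.287% of the miR-302 3p reads in wild-type libraries and to 0.104% to 0.116% in null libraries.

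The seed of miR-367-3p, AUUGCAC, was found in 5 further miRNAs, most of them from the growth-promoting miR-17 cluster and its paralogs. The 4 most abundant in the wild type were these.
miR-92a-3p: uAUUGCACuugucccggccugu
miR-92b-3p: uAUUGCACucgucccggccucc
miR-25-3p: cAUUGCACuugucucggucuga
miR-363-3p: aAUUGCACgguauccaucugua
Of all 594 miRNAs 132 fell and 59 rose in homozygous cells, and 182 fell and 24 rose in hemizygous cells. In both genotypes 1 of the 5 with this seed fell and 0 rose. It was miR-32-5p, named after its value was seen and the only one of the 5 on a 5p arm, which went from 6354 ± 1358 RPM (SD, n = 2) to 956 ± 220.3 RPM (-2.73, limma adjusted p = 0.0108) and to 664 ± 673 RPM (-3.76, limma adjusted p = 0.00023). miR-92a-3p had 50083 ± 4522 RPM in the wild type, 68556 ± 3422 in homozygous (0.46) and 51787 ± 37600 in hemizygous cells (-0.17). Under the 5 other scalings 1 to 4 of the 5 were called higher in these cells, and 1 lower each time. Of all 594 miRNAs 108 to 254 were then called higher and 149 to 204 lower. In null cells all 5 fell on the deposited scale, with miR-92a-3p at -3.11 and miR-363-3p at -7.48, while under the 5 other scalings 4, 3, 2, 2 and 2 were called lower and 1 higher, or 0 higher for quantiles. Of all 594 miRNAs 518 fell in null cells as deposited. Under the 5 others 136 to 265 of them were called lower and 79 to 137 higher. Together with miR-367-3p, reads with this seed came to 11.4% ± 0.979 of the wild-type total and 14.2% ± 0.0678, 14.1% ± 0.164 and 14.4% ± 3.48 of the homozygous, hemizygous and null totals.

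A pair of other families bear on the same cells. In the second pluripotency cluster, the 6 arms of miR-371a, miR-372 and miR-373, 0 passed in homozygous cells (median 0.82) and 2 fell in hemizygous cells, miR-371a-5p (-2.78, limma adjusted p = 0.00537) and miR-372-5p (-2.53, limma adjusted p = 0.0343). Of all 594 miRNAs 32.2% were called in homozygous and 34.7% in hemizygous cells. Under the 5 other scalings 3 or 4 of the 6 were called higher in homozygous and 3 in hemizygous cells, and 0 or 1 lower. Of all 594 miRNAs 108 to 254 were then called higher and 149 to 204 lower. On the deposited scale all 6 fell in null cells, but under the 5 other scalings 0 to 2 fell and 1 or 2 rose. Of all 594 miRNAs 518 fell there as deposited, and under the 5 others 136 to 265 fell and 79 to 137 rose. The 5p arms of miR-17, miR-20a, miR-93, miR-106a and miR-106b carry the miR-302 seed shifted by 1 base and favour proliferation; all 5 fell in both S1344L genotypes (medians -2.81 and -3.65), as they did under each of the 5 other scalings. Of all 227 5p arms 111 fell in homozygous and 138 in hemizygous cells, with medians of -2.25 and -2.93. Under the 5 others 122 to 149 of the 227 fell in homozygous and 120 to 146 in hemizygous cells. miR-451a, which matures through Argonaute rather than Dicer, was at 1.40 in homozygous, 0.16 in hemizygous and -1.495 in null cells and did not pass. Under the 5 other scalings it was called higher in homozygous cells (1.34 to 2.31) and in null cells (2.40 to 3.32) each time. In hemizygous cells it was called higher under 3 of the 5 (1.48 to 1.99). Higher calls over all 594 miRNAs then numbered 113 to 251 in homozygous, 79 to 137 in null and 108 to 254 in hemizygous cells.

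The miRNAs whose levels over the 8 libraries most resembled the mean of the 5 3p arms were miR-524-3p (Pearson r = 0.9991), miR-130a-3p (0.9987), miR-520h (0.9985), miR-203a-3p (0.9982) and miR-519d-3p (0.9982). This is a description over 8 libraries that differ in depth and denominator. All miRNAs of a library share its depth and denominator, and the median r of the 483 candidates was itself 0.913. Among the cluster's own 5p arms, miR-302c-5p (0.955) and miR-302a-5p (0.939) followed the 3p arms closely and miR-367-5p less so (0.716). miR-302d-5p (0.23) and miR-302b-5p (0.126) did not.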

How the data were processed

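Per the labels' protocols, total RNA was extracted with Trizol, spike-ins were added, linkers were ligated to both ends, and the products were amplified and sequenced as single-end reads. The submitters' processing notes name cutadapt, limma and the hg38 build; the aligner is not given in the sources used here, nor are the counting and scaling. In the table the authors deposited, values are log2 RPM per library with 0.5 of a read added, per the file headers and values, for 594 miRNAs (227 5p, 300 3p, 67 without an arm) and 0 spike-ins. Whole reads were recovered from it, at most 7.8e-09 from a whole number. A count of 0 allows up to 3 reads.

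The plan assumed RPM, so the deposited log2 values were turned back to RPM. Differences on the log2(RPM + 1) scale, which understates those of low miRNAs, were fitted in R 4.3.3 with limma 3.58.1. The model held group means over all 8 libraries with a variance trend, two-sided, adjusted over all 594 miRNAs or, for the log2 ratio of 3p to 5p, over 186 hairpins. All 594 passed a filter of 5 RPM in 2 libraries. The fitted prior was infinite for arms, so their standard errors follow the trend over all miRNAs and genotypes. They do not measure the spread of an arm's own libraries. The fit was tested on simulated data. Shares of reads were compared with an exact permutation test. Mature and hairpin sequences come from RefSeq (GRCh38.p14), which matched 533 of the 594 names and all 10 arms; gene positions come from the supplied hg38 annotation.

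The members, lists and tests were chosen with earlier results of these data known. Named besides the 10 arms are the 4 most abundant miRNAs per shared seed, the 5 most alike in level among those with at least 50 RPM in 1 group, members of the listed families, and those said to be named after their values were seen. Same-numbered replicates deviated together in wild-type and hemizygous cells (correlation 0.617) but not in the other 5 pairs of genotypes (-0.114 to 0.0973). With 2 replicates and nothing in the labels that ties the numbers, they were not taken as pairs. Alternatives were pseudocounts of 0.5 and 5 RPM, no filter or 50 RPM, 5 other scalings, the 2 compared groups alone, voom weights, a replicate block, other totals for shares, and each library left out.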

Additional observations from a re-analysis of the deposited data

How the results depend on the processing

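Of 1233 recomputed values 1025 were labelled as unchanged: single values kept their direction and their side of the threshold, and counts stayed of like size. The label ignores the direction of a count. In null cells it was thus given where 9 arms called lower became 7 or 8 called higher. Scaled to all miRNA reads, reads outside the cluster, by median ratio, upper quartile or quantiles, the count of arms called was 6, 6, 6, 7 and 6 for homozygous and 6, 6, 7, 7 and 6 for hemizygous cells against 2 and 2 as deposited. In both genotypes 2, 2, 4, 4 and 2 of the 3p arms were higher and 1, 1, 0, 0 and 1 lower. Of the 5p arms 0, 0, 0, 1 and 0 were higher in both. Lower were 3, 3, 2, 2 and 3 of them in homozygous and 3, 3, 3, 2 and 3 in hemizygous cells. Over all 594 miRNAs the calls in the same order were 113, 135, 182, 251 and 189 higher with 200, 192, 175, 149 and 165 lower in homozygous cells, and 108, 127, 189, 254 and 179 higher with 204, 194, 172, 151 and 169 lower in hemizygous cells. In null cells 4, 7, 7, 8 and 3 arms were called higher and 2, 1, 0, 0 and 2 lower, against 0 and 9 as deposited. The calls over all 594 miRNAs there were 79, 105, 121, 137 and 99 higher with 265, 201, 164, 136 and 167 lower, against 8 and 518 as deposited. The count of arms called was 8 for homozygous cells in the fit of the 2 groups alone, and 4 for hemizygous cells with voom weights. Quantile scaling called 5 arms in null cells and median-ratio scaling 4 between homozygous and null cells. With the replicate number as a block, 4 arms were called in hemizygous, 2 in homozygous and 9 in null cells, and 3 hairpins in homozygous cells.

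These values turned sign against wild type under the other scalings. All of these but the quantile one multiply a whole library by 1 factor, which moves every arm by a like amount. In homozygous cells they were miR-367-5p (0.053, 0.37, 0.87 and 0.67 for reads outside the cluster, median ratio, upper quartile and quantiles), miR-302a-5p (0.22 and 0.71 for median ratio and upper quartile), miR-302c-5p (0.067) and miR-302c-3p (0.30) for upper quartile, and miR-367-3p (-0.060) for quantiles. In hemizygous cells, in the order of the 5 scalings above, they were miR-302d-3p (0.55, 0.77, 1.14, 1.65 and 0.50) and miR-367-5p (0.15, 0.37, 0.74, 1.25 and 0.91); for the first 4 scalings miR-302b-3p (0.58, 0.80, 1.17 and 1.69) and miR-367-3p (0.28, 0.49, 0.86 and 1.38); and for upper quartile miR-302a-5p (0.40) and miR-302c-3p (0.25). In null cells, in the same order, they were miR-302a-5p (0.59, 0.95, 1.20, 1.36 and 0.33), miR-302a-3p (0.65, 1.01, 1.26, 1.42 and 0.33), miR-302b-5p (1.33, 1.69, 1.94, 2.10 and 1.57), miR-302d-5p (0.82, 1.18, 1.43, 1.59 and 1.63), miR-367-5p (2.57, 2.92, 3.18, 3.34 and 3.27) and miR-367-3p (0.35, 0.71, 0.96, 1.12 and 0.14). There miR-302b-3p was at 0.90, 1.26, 1.51 and 1.67 for the first 4, and miR-302d-3p at 0.21, 0.46, 0.63 and 0.25 for the last 4.

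Leaving out 1 library in turn, the arms called ranged from 0 to 3 in homozygous cells (0 without wild-type replicate 2 or homozygous replicate 2), 2 to 9 in hemizygous cells and 0 to 8 between them, and the hairpins from 2 to 4 in homozygous and 1 to 2 in null cells. Against wild type, miR-302a-5p ranged from -0.56 to 0.17 and miR-367-5p from -1.04 to 0.96 in homozygous cells. In hemizygous cells miR-302a-3p ranged from -0.77 to 0.87, miR-302b-3p from -0.97 to 0.68, miR-302d-3p from -1.01 to 0.65, miR-367-5p from -1.58 to 0.42 and miR-367-3p from -1.37 to 0.45. Against null, miR-302d-5p ranged from -1.53 to 0.37 in homozygous and from -1.83 to 0.073 in hemizygous cells. The miR-367 ratio ranged from -0.34 to 1.23 in homozygous and -0.67 to 0.91 in hemizygous cells, and in null cells that of miR-302a from -0.30 to 0.41 and of miR-302b from -0.89 to 0.032. With 2 libraries per genotype, 1 library decides many of these values, and the spread of hemizygous replicate 1 enters every standard error of the arms. A lone library is assumed to vary like the other genotypes. Depth limits the null libraries most.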
